A study of Rattus norvegicus with 17 samples.

Results

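The genes described here are those of GDNF reception: Ret, its coreceptor genes Gfra1 and Gfra2, and the ligand gene Gdnf itself. They were taken as the probe sets of the array whose only gene symbol in the probe annotation was 1 of these 4, which gave 8 probe sets (3 for Ret, 2 each for Gfra1 and Gfra2, 1 for Gdnf) for 4 of the 14218 genes so named. Of the 8, 6 were bright enough to be tested, and 1 of the 3 for Ret and the only 1 for Gdnf were not.

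GDNF, the glial cell line-derived neurotrophic factor, is a secreted survival factor for motor neurons and for other spinal and sensory neurons. It binds a coreceptor of the Gfra family, which is held to the membrane by a lipid anchor, and the pair then brings together and activates Ret, a receptor tyrosine kinase that signals inside the neuron. Gfra1 is the preferred coreceptor of GDNF and Gfra2 that of the related ligand neurturin, and muscle and Schwann cells are known sources of GDNF for motor axons.

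The study profiled spinal cord neurons of rats on Affymetrix arrays, to find genes that go with axotomy and with axon regeneration. Each of the 17 samples was a pool of 1000 neurons that had been labelled retrogradely and were collected with a laser from 10 µm cryosections of unfixed cord, and its RNA went through 3 rounds of amplification. From 7 axotomised rats (MOON265, MOON266, MM11, MM13, MM14, MM16 and MM17), neurons that were regenerating their axon and neurons that were not were collected separately, which gave 7 regenerating and 7 non-regenerating samples. The other 3 samples were traced neurons of rats without axotomy (MM15, MM18 and MM19), so these controls were labelled and captured but not cut, and they came from other animals. The title of traced MM15 alone adds "high yield replicate", which the labels do not explain. Strain, sex, age, the tracer and the kind of injury are not given in the sources used here, and the samples hold whatever cells lay in the captured spots.

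The arrays had been scaled to nearly the same trimmed mean, but they differed in how the signal was spread. The animals' names began with MM or with MOON, and all traced animals were of the first kind. The 4 MOON arrays had median signals of 32.8 to 39, and the 13 MM arrays of 45.2 to 76.9. The arrays of non-regenerating MM17 and traced MM15 stood apart, with 12.4% and 11.9% of their signal in the 100 brightest probe sets, against 3.85% to 7.31% on the others. Markers of neurons were measured in every group, such as Rbfox3, the nuclear protein NeuN, at 374 ± 266 (SD), 304 ± 162 and 337 ± 76 in regenerating, non-regenerating and traced samples. So were markers of other cells, such as Gfap of astrocytes at 3116 ± 621, 3210 ± 679 and 1227 ± 236, Mbp of myelin at 3884 ± 796, 4357 ± 1045 and 3851 ± 350, and Aif1 of microglia at 286 ± 176, 207 ± 148 and 62.1 ± 42.2. In pools like these, fewer cells of a type and less RNA per cell cannot be told apart.

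The ligand gene Gdnf lay below the filter on low signals. The signal of Gdnf (probe set 1369598_at) was 2.1 at the lowest, 3.2 at the median and 5.1 at the highest of the 7 regenerating samples. It was 2.1, 3.6 and 5.3 in the non-regenerating samples, and 3.7, 3.9 and 5.1 in traced MM15, MM18 and MM19. All these values lay far below 34.1, the average signal from which a probe set was tested, and the groups overlapped throughout. On the scale of log2(signal + 16), the difference between regenerating and non-regenerating neurons was 0.0033, with 4 of 7 animals higher (two-sided exact sign-flip p = 0.969), which is a difference between signals at the dim end of the array. Nrtn, Pspn and Gdf15, which encode neurturin, persephin and the stress-induced factor GDF15, lay below it too, so that 0 of 4 ligand genes could be tested, and Artn was not analysed here.

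**Figure D1:**
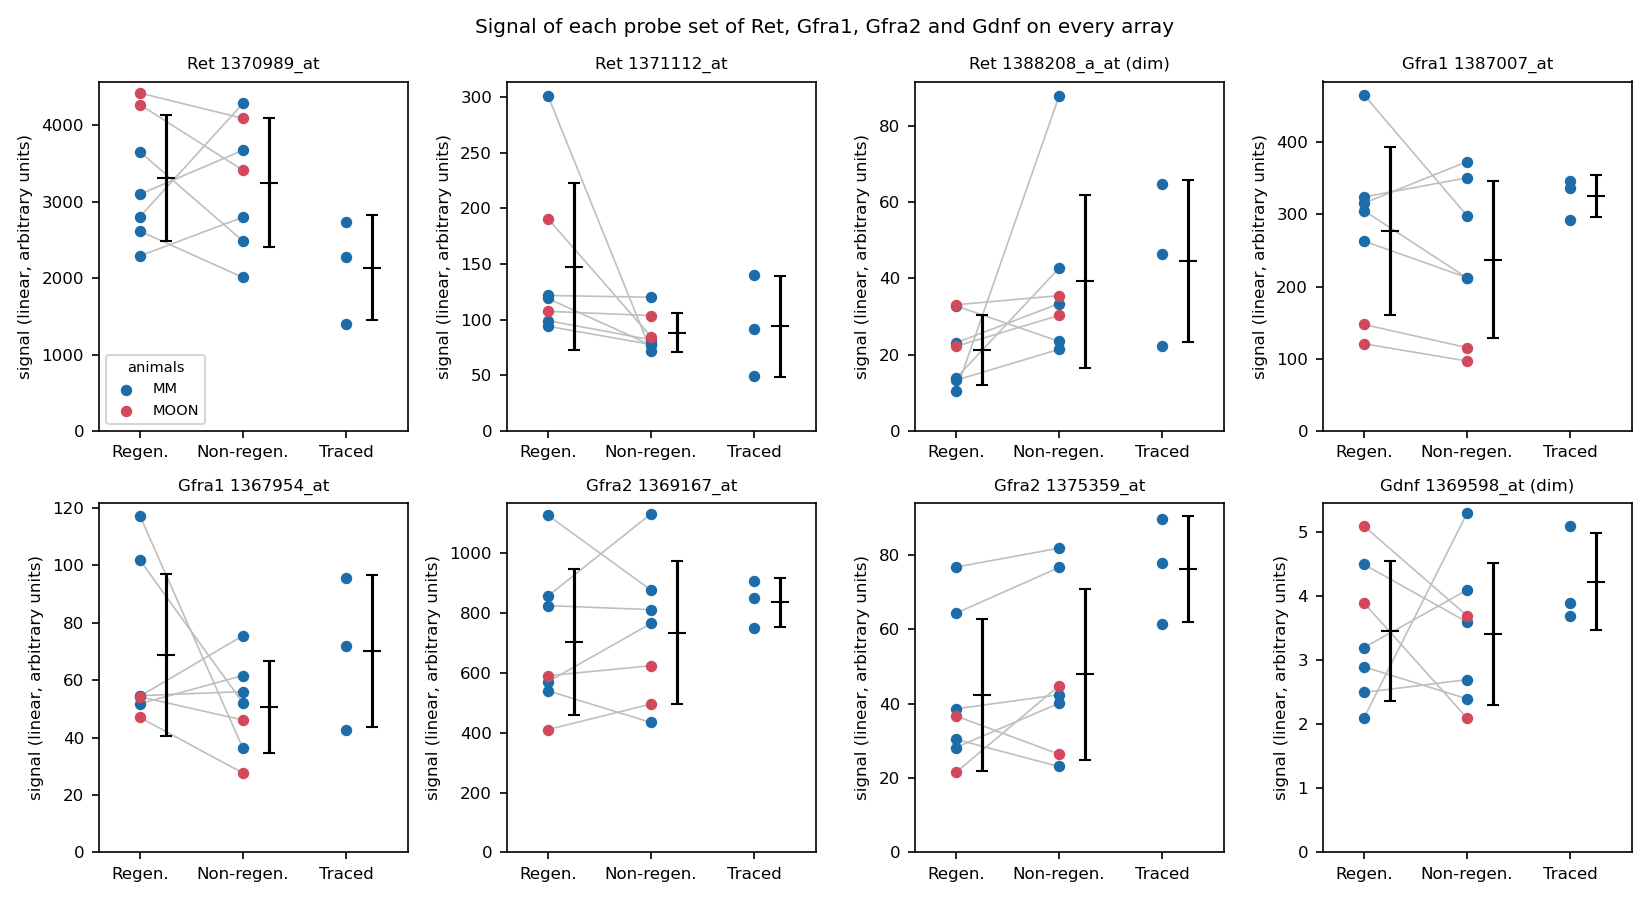
Signal (linear scale, arbitrary units) of the 8 probe sets of Ret, Gfra1, Gfra2 and Gdnf on each of the 17 arrays, with a grey line joining the regenerating and non-regenerating sample of 1 animal, colours for the name prefix of the animal, and black bars for the mean and SD of each group. The groups overlap for every probe set, and for Gfra1 1387007_at the 4 arrays of the MOON animals (96.8 to 147) lie below all others.

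Gfra1, the coreceptor for GDNF, was measured by 2 probe sets above the filter. The brighter, 1387007_at, had a signal of 121, 305 and 466 at the lowest, median and highest regenerating sample and of 96.8, 212 and 373 in the non-regenerating samples. In traced neurons it was 346, 337 and 292 in MM15, MM18 and MM19, a narrow range inside that of both axotomised groups. Regenerating samples were higher than their non-regenerating partners in 5 of 7 animals, by 0.24 on average (log2, SE 0.14, 95% interval -0.06 to 0.53, limma adjusted p = 0.724). The exceptions were MM16 and MM17. When arrays were centred on their medians 7 of 7 were higher, with a mean difference of 0.27. Under quantile normalization 5 of 7 were higher, again without MM16 and MM17, with a mean difference of 0.17. The second probe set, 1367954_at, gave 47, 54.4 and 117 in regenerating and 27.6, 52 and 75.5 in non-regenerating samples, and 95.5, 42.7 and 71.8 in traced MM15, MM18 and MM19. It differed by 0.32 (SE 0.21, limma adjusted p = 0.732) with 4 of 7 animals higher, and MM14 (117 against 36.2) stood highest for both probe sets of Gfra1. Without MM14 the second probe set differed by 0.15.

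The signal of 1 probe set of Gfra1 lay apart by the name prefix of the animals. On the 14 axotomised arrays, 1387007_at lay between 212 and 466 in the 10 of the MM animals and between 96.8 and 147 in the 4 of the MOON animals, a difference of 2.37-fold with no overlap. Of the 6 tested probe sets described here it was the only 1 whose ranges for MM and MOON did not overlap, against 19.9% of all 18625 tested probe sets, so that a separation of this kind was common on these arrays. What the prefixes stand for is not given in the sources used here. For the second probe set of Gfra1 the ranges overlapped, at 36.2 to 117 and 27.6 to 54.2. Between regenerating and non-regenerating neurons 1387007_at differed by 0.21 in the 5 MM and by 0.30 in the 2 MOON animals.

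Gfra2, the coreceptor for neurturin, did not pass the test within animals. Its brighter probe set, 1369167_at, gave 410, 589.9 and 1126 at the lowest, median and highest regenerating sample and 434, 764 and 1131 in the non-regenerating ones. Traced MM15, MM18 and MM19 gave 748, 849.9 and 907, inside the range of both other groups. The mean difference between regenerating and non-regenerating neurons was -0.07 (SE 0.13, 95% interval -0.34 to 0.21, limma adjusted p = 0.917), with 3 of 7 animals higher. The other probe set, 1375359_at, was dimmer, with 21.5, 36.7 and 76.7 in regenerating and 23.1, 42.4 and 81.8 in non-regenerating samples, and 77.7, 61.3 and 89.7 in traced MM15, MM18 and MM19. Traced MM19 lay above all axotomised samples, and the other traced samples within their range. It differed by -0.12 within animals (SE 0.17, limma adjusted p = 0.880), with 2 of 7 animals higher.

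Ret, the kinase that carries the signal into the neuron, was measured by 3 probe sets that did not behave alike. The brightest, 1370989_at, had a signal of 2292, 3098 and 4424 at the lowest, median and highest regenerating sample. It gave 2009, 3412 and 4289 in the non-regenerating samples, which covered nearly the same range. The mean difference within animals was 0.03 (SE 0.15, 95% interval -0.29 to 0.35, limma adjusted p = 0.972), with 4 of 7 animals higher. This small mean was made of differences in both directions, from -0.61 in MM14 to 0.55 in MM17. Among the 5 MM animals it was -0.04 and in the 2 MOON animals 0.22.

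The probe set 1371112_at of Ret lay higher in regenerating neurons in 7 of 7 animals. Its signal was 94, 119 and 301 at the lowest, median and highest regenerating sample and 71.8, 81.9 and 120 in the non-regenerating samples. The difference was 0.56 (SE 0.21, 95% interval 0.12 to 1.01, unadjusted p = 0.0155), but its adjusted p by limma was 0.678 and it ranked 395 of 18625 in this comparison. An exact sign-flip test gave p = 0.0156 (two-sided, unadjusted), the lowest value possible with 7 pairs. The size came from few animals. In MM14 the pair read 301 against 71.8 and in MOON265 191 against 84.7, while in MM11 it read 122 against 120 and in MOON266 107 against 104. Without MM14 the mean difference was 0.35, and the number of animals with a higher regenerating sample was 6 under quantile normalization and 5 after centring arrays on their medians. The same 3 animals, MM14, MOON265 and MM13 (119 against 77.1), had the widest differences of Chat, the enzyme of acetylcholine synthesis in motor neurons, at 2.18, 2.36 and 1.82 on the log2 scale, against 0.08 to 0.75 in the others. Slc5a7, the choline transporter of the same cells, differed by 1.64, 2.57 and 1.57 in these 3 and by -0.09 to 1.27 in the others. Of the 10 tested motor neuron markers 8 were higher in regenerating samples, with a median of 1.19, and the part of this difference in that of Ret was not tested.

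The remaining probe set of Ret, 1388208_a_at, lay close to the filter and went the other way. It is annotated to the same source sequence as 1371112_at, and 1370989_at to another. The reason for the opposite directions was not tested. The signal of 1388208_a_at was 10.4, 22.2 and 33.1 in regenerating and 21.4, 33.4 and 87.8 in non-regenerating samples, and was lower in the regenerating sample of 6 of 7 animals. The difference was -0.53 (two-sided exact sign-flip p = 0.0625, unadjusted), and -0.28 without MM17 (exact p = 0.125). MM14 was the exception, with 32.8 in its regenerating and 23.5 in its non-regenerating sample, and the widest gap was in MM17, with 10.4 against 87.8 on the array that stood apart. Over the 17 arrays, and with the means of the name prefixes removed, the signal of 1370989_at correlated with that of 1371112_at at r = 0.24 and with that of 1388208_a_at at r = -0.40. The probe sets of the coreceptors went together more closely, at r = 0.52 for the 2 of Gfra1 and r = 0.76 for the 2 of Gfra2. These are descriptions over arrays that share animals and whole-array differences.

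**Figure D2:**
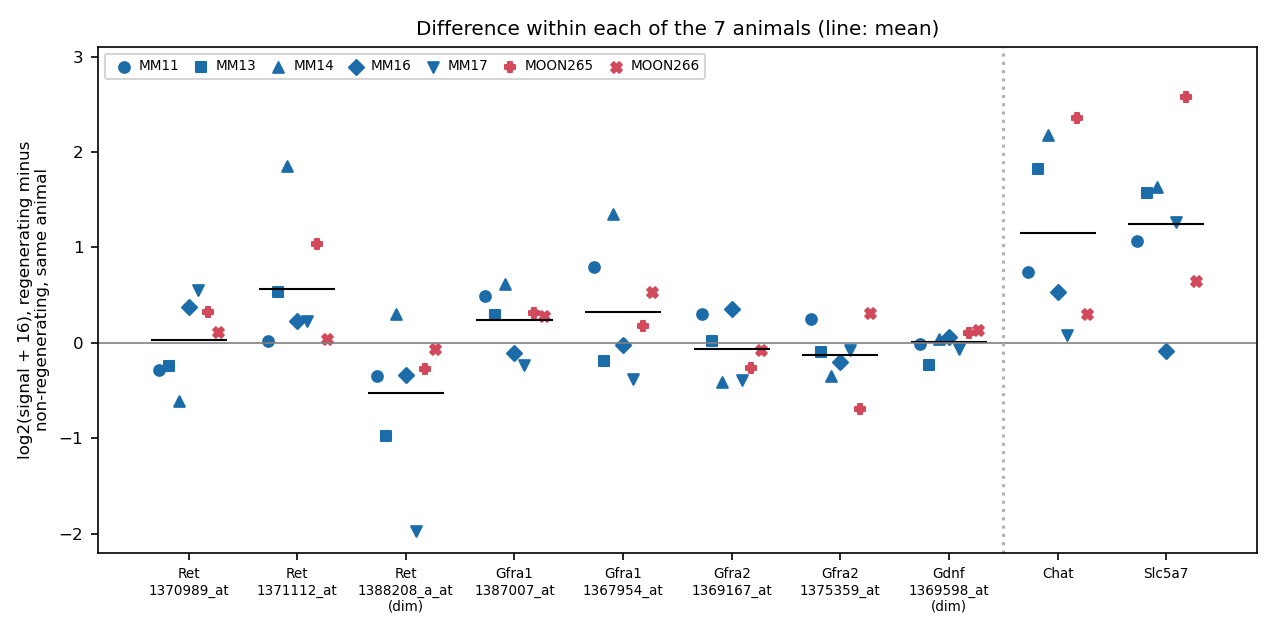
Difference in log2(signal + 16) between the regenerating and the non-regenerating sample of each of the 7 animals, for the 8 probe sets and, right of the dotted line, for the motor neuron genes Chat and Slc5a7; symbols stand for animals, colours for the name prefix and black lines for the mean. Ret 1371112_at lies above 0 in 7 of 7 animals, with MM14 and MOON265 highest, while Ret 1370989_at and Gfra2 1369167_at scatter on both sides of 0.

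In the comparison within animals, then, 0 of the 6 tested probe sets passed the threshold of an adjusted p under 0.05, where 0.0161% of all tested probe sets did. At an unadjusted p under 0.05 in limma it was 1 of the 6, Ret 1371112_at, against 7.08% of all. Against a background this low, a count of 0 in 6 sets these genes apart from no others, and it does not show that they were alike in both kinds of neurons.

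In most animals the difference of Ret 1370989_at lay on the same side as that of other bright probe sets, and the cause was not tested. A measure added after the values were seen was the median, over the brightest 2% of probe sets (620, with those of Ret left out), of each probe set's difference between the 2 arrays of an animal. In MM11, MM13, MM14 and MM16 that median difference was -0.42, -0.19, -0.69 and 0.38 on the log2 scale, and Ret by -0.29, -0.25, -0.61 and 0.38. In the MOON animals the differences were 0.11 and 0.03 for the bright probe sets and 0.32 and 0.11 for Ret. The exception was MM17, whose non-regenerating array stood apart, with -0.39 for the bright probe sets and 0.55 for Ret. Over the 7 animals together, the bright probe sets had a median difference of -0.17, with quartiles of -0.26 and -0.08. Ret, at 0.03, lay above the upper quartile. Gfap, the astrocyte filament gene, differed by -0.34, -0.33, -0.61, 0.50 and 0.51 in MM11, MM13, MM14, MM16 and MM17. It lay on the same side as Ret in each of these. In MOON265 and MOON266 it differed by -0.11 and 0.13, in MOON265 on the other side from Ret. Of the 10 astrocyte markers 3 were higher and 7 lower in regenerating samples, and only Gfap was followed by animal. Markers of other cells did not all lie on the same side as Ret. In MM11, MM13, MM14, MM16 and MM17, Mbp differed by -0.62, -0.20, -0.92, 0.47 and -0.10. In the same animals Aif1 differed by 0.19, 0.69, 1.01, 0.31 and 0.62, and Rbfox3 by 0.23, -0.18, 0.97, 0.31 and -0.20. Under quantile normalization, which gives all arrays the same spread of signals, Ret 1370989_at lay higher in the regenerating sample in 6 of 7 animals. Its mean difference was then 0.17, with an adjusted p of 0.599 by limma. After centring arrays on their medians it was higher in 3 of 7, with a mean difference of 0.06.

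**Figure D3:**
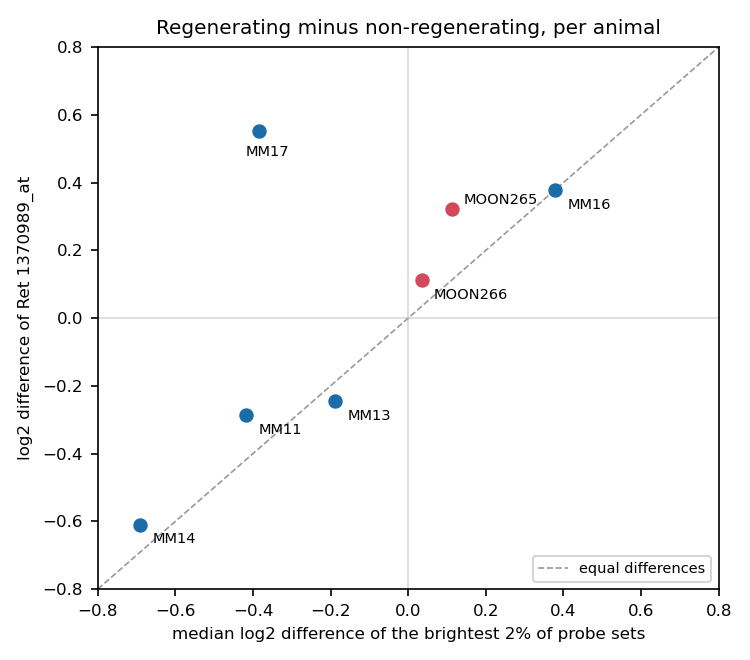
Difference between the regenerating and the non-regenerating array of each animal for Ret 1370989_at (vertical, log2) against the median difference of the brightest 2% of probe sets (horizontal, log2), with a dashed line where both are equal and colours for the name prefix. MM17, at -0.39 and 0.55, is the animal furthest from the line.

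The comparisons with traced neurons were made between animals, and both use the same 3 traced arrays, so their values are given side by side and are not independent. Of the 6 tested probe sets 0 passed in either, where 0.043% of all tested probe sets passed between non-regenerating and traced neurons and 0.215% between regenerating and traced ones. At an unadjusted p under 0.05 in limma it was 1 of 6 against 10.3% of all in the first and 2 of 6 against 23.6% in the second. The median of all tested probe sets lay at -0.12 in both. With 7 samples against 3, the smallest two-sided exact permutation p is 0.00833.

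Ret 1370989_at was the probe set that lay highest over the traced neurons. Its signal in the traced samples was 1397, 2282 and 2740 in MM15, MM18 and MM19, with a mean of 2139 ± 683 (SD, n = 3). The means were 3309 ± 827 in regenerating and 3252 ± 849 in non-regenerating neurons (n = 7 each). In the MM animals alone, to which all traced ones belong, they were 2893 and 3052 (n = 5 each). The MOON arrays, which have no traced counterpart, had means of 4348 and 3752 (n = 2 each). The ranges overlapped, since non-regenerating MM16 (2009) and MM17 (2486) and regenerating MM11 (2292) and MM16 (2617) lay below traced MM19. Non-regenerating neurons differed from traced ones by 0.61 (SE 0.28, 95% interval 0.00 to 1.22, limma adjusted p = 0.472), with a two-sided exact permutation p of 0.075. Regenerating neurons differed by 0.64 (SE 0.26, 95% interval 0.08 to 1.20, limma adjusted p = 0.158), with a two-sided exact permutation p of 0.05. Traced MM15, the array that stood apart and was titled a high yield replicate, was the lowest, and without it the differences were 0.33 and 0.36. The brightest 2% of probe sets had median differences of 0.06 and -0.11 in these comparisons. For 1371112_at, traced MM15, MM18 and MM19 gave 49.4, 92 and 140.5, in the same order as for 1370989_at, and the differences from non-regenerating and regenerating neurons were -0.0055 (adjusted p = 0.996) and 0.56 (adjusted p = 0.375) by limma. For 1388208_a_at the traced samples gave 64.7, 22.3 and 46.4, with MM15 the highest, and the differences were -0.15 (two-sided exact permutation p = 0.708) and -0.67 (p = 0.05).

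The coreceptors lay lower in axotomised than in traced neurons in most of these values, and none of them passed. Gfra1 1387007_at differed by -0.56 (SE 0.37, limma adjusted p = 0.541) in non-regenerating and by -0.32 (SE 0.34, adjusted p = 0.614) in regenerating neurons. Within the MM animals alone these were -0.19 and 0.02. The MOON arrays, which lay lower, have no traced counterpart. Its second probe set differed by -0.35 (adjusted p = 0.647) and -0.03 (adjusted p = 0.962). Gfra2 1369167_at differed by -0.24 (SE 0.28, adjusted p = 0.735) and -0.31 (SE 0.28, adjusted p = 0.543), and within the MM animals alone by -0.11 and -0.14. The dimmer probe set of Gfra2, 1375359_at, lay lowest against traced neurons, by -0.59 (SE 0.33, adjusted p = 0.489) and -0.72 (SE 0.30, adjusted p = 0.163), and within the MM animals by -0.49 and -0.59. With array weights its differences were -0.73 (adjusted p = 0.042) and -0.68 (adjusted p = 0.047), among 2440 and 3131 probe sets called there. Under quantile normalization they were -0.24 and -0.32, and with arrays centred on their medians -0.24 and -0.33, and neither passed. That centring moved the median of all probe sets to 0.24 and 0.26 and turned Gfra2 1369167_at to 0.12 and 0.08.

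**Figure D4:**
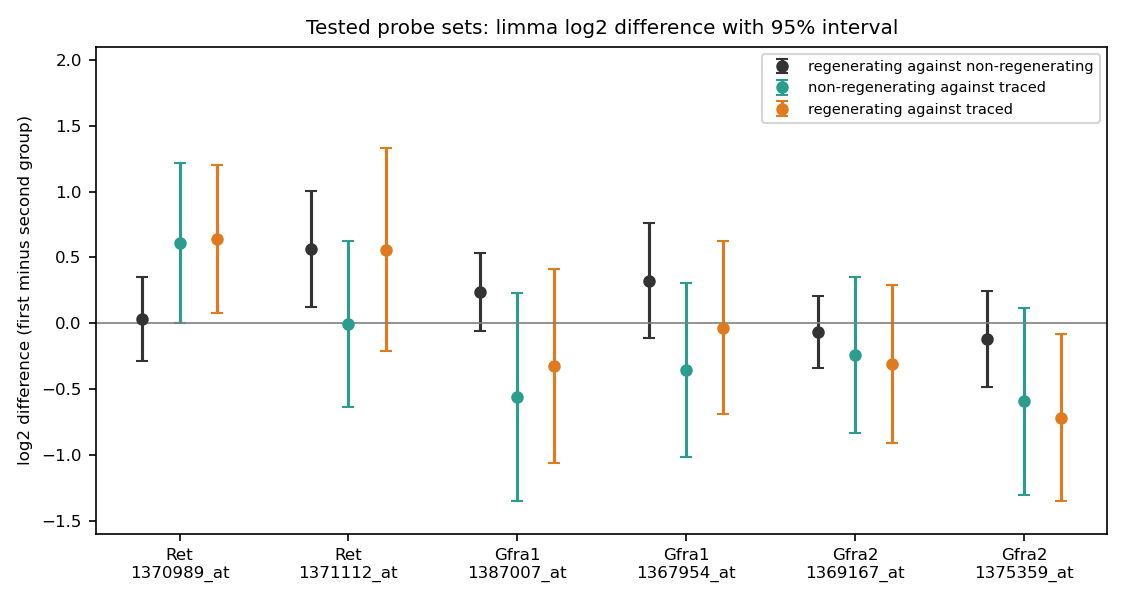
Log2 difference with its 95% interval from limma for the 6 tested probe sets, between regenerating and non-regenerating neurons (7 animals), non-regenerating and traced neurons and regenerating and traced neurons (7 against 3 animals, the same traced arrays in both). Intervals for Ret 1370989_at against traced neurons lie at or above 0 (0.00 to 1.22 and 0.08 to 1.20), and the values of both Gfra2 probe sets lie below 0.

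Signals of glial markers were measured beside these values. The summed signal of 12 microglia and macrophage markers was 6887 to 11783 in regenerating, 6824 to 10700.0 in non-regenerating and 3729 to 4425 in traced samples. That of 10 astrocyte markers was 14873 to 22440, 13948 to 22521 and 13310 to 14572, with an overlap between the non-regenerating and traced samples. That of 10 general neuron markers overlapped between all groups, at 16170 to 28444, 14851 to 42702 and 20198 to 44812. Of these lists, 0 markers were at 0 on every array. Of the tested microglia markers 8 of 8 were higher in non-regenerating than in traced samples, with a median of 1.12, and 10 of 10 astrocyte markers, with a median of 0.32. Between regenerating and traced samples it was 8 of 8 with a median of 1.15, and 8 of 10 with a median of 0.41. Of the general neuron markers 2 of 10 were higher in either comparison, with medians of -0.09 and -0.23. Among all named genes 43.9% and 46.3% were higher in these comparisons. Microglia markers below the filter did not all go this way. In regenerating, non-regenerating and traced samples the means were 26.6, 32 and 61.2 for Cx3cr1 and 31.5, 35.2 and 61.9 for Tyrobp. They were 2.7, 3.9 and 4.3 for Itgam, and 45.6, 40.1 and 14.2 for C1qb. The part of the glial markers in the values of Ret, Gfra1 and Gfra2 was not tested.

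The wider pathway was followed through a list of 78 genes, of which 62 were on the array with a probe set of their own and 47 were tested at their brightest probe set. In each of the 3 comparisons 0 of the 47 passed the threshold. Between regenerating and non-regenerating neurons 20 were higher and 27 lower, with a median of -0.04, beside a median of 0.01 and 52.9% higher among all 10431 named genes. Between non-regenerating and traced neurons 25 were higher and 22 lower, with a median of 0.04 beside -0.06 and 43.9% higher. Between regenerating and traced neurons 24 were higher and 23 lower, with a median of 0.02 beside -0.04 and 46.3% higher. At an unadjusted p under 0.05 in limma the list had 2 higher and 1 lower in the first comparison, 1 and 1 in the second, and 3 and 5 in the third. Among all 10431 named genes the numbers were 514 and 261, 324 and 623, and 737 and 1413. Past the threshold lay 2 higher in the first, 6 higher in the second, and 21 higher and 3 lower in the third.

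The other receptors of GDNF ligands were in part too dim to test. The coreceptor genes Gfra3, for artemin, and Gfra4, for persephin, were below the filter, with mean signals of 24.2 ± 19.4 (SD), 37 ± 33.5 and 59.7 ± 12.9 for Gfra3 and 20.3 ± 3.8, 21.3 ± 10.6 and 20.5 ± 13.7 for Gfra4 in regenerating, non-regenerating and traced samples. Ncam1, the adhesion molecule that can bind GDNF together with Gfra1 as an alternative to Ret, differed by -0.01 (SE 0.13) within animals, and by 0.50 and 0.49 from traced neurons. Sdc3, a heparan sulphate carrier that binds GDNF, differed by -0.09 within animals and by 0.13 and 0.04 from traced neurons.

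Inside the cell, the genes with the smallest unadjusted p in each comparison did not pass either. Within animals these were Ptprf, the receptor phosphatase LAR (0.28, SE 0.12), Plcg1, phospholipase C gamma (0.26, SE 0.12), and Grb2, the adaptor that links receptor kinases to Ras (-0.27, SE 0.13), with adjusted p of 0.681 to 0.697 by limma. Between non-regenerating and traced neurons they were Isl1, a LIM homeodomain factor needed for motor neuron identity (-1.37, SE 0.48), Cblb, a ubiquitin ligase of receptor kinases (0.88, SE 0.42), and Shc1, an adaptor of Ret (0.46, SE 0.22), each with an adjusted p of 0.472. Between regenerating and traced neurons they were Isl1 again (-1.40, SE 0.38, adjusted p = 0.071), Frs3, a docking protein (-0.97, SE 0.30, adjusted p = 0.081), and Irs1, a docking protein of the insulin receptor (-0.92, SE 0.30, adjusted p = 0.094). Isl1 read 31 ± 19.9 and 35.6 ± 32.7 in regenerating and non-regenerating samples and 99.9 ± 33.3 in the traced ones. On the log2 scale the means of both axotomised groups lay below the filter. Isl1 was thus tested only because its traced signals were higher, and its differences are given as a description. The genes Etv1 and Etv5, transcription factors induced by GDNF, differed by -0.11 each within animals. From traced neurons Etv1 differed by 0.08 and -0.03, and Etv5 by -0.62 (adjusted p = 0.472) and -0.73 (adjusted p = 0.183), and Etv4 was below the filter.

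**Figure D5:**
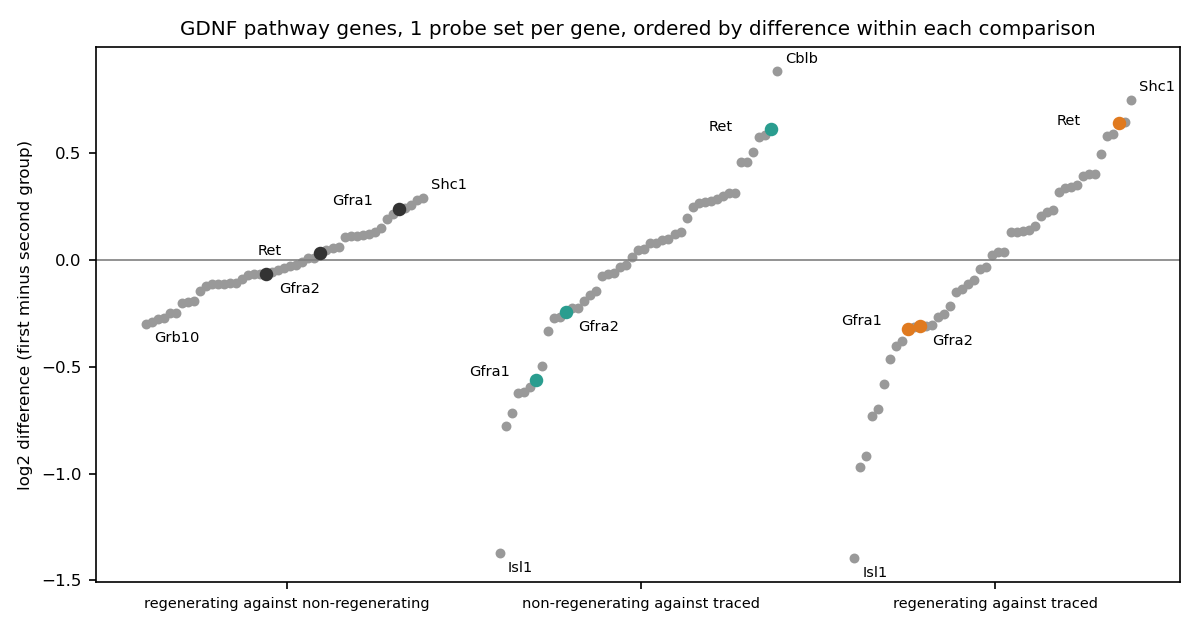
Log2 difference of the 47 tested genes of the GDNF pathway list, 1 probe set per gene, ordered by size within each of the 3 comparisons, with Ret, Gfra1 and Gfra2 in colour and the lowest and highest gene named. None passed the threshold, and the spread is narrower in the comparison within animals than in those with the 3 traced samples.

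Across the 17 arrays the genes whose signal ran most like that of Ret 1370989_at, with the means of the name prefixes removed, were Reln, the secreted protein reelin, at r = 0.92, Ndrg1 at 0.89, Eef1a1, a translation elongation factor, at 0.89, Sort1, the sorting receptor sortilin, at 0.89, and Tnik, a kinase, at 0.89. As measured, without that step, their r was 0.85 to 0.93. For Gfra1 1387007_at they were Dusp9, a phosphatase, at 0.88, Slc27a4, a fatty acid transporter, at 0.87, Zswim8 at 0.84, Rac3, a small GTPase, at 0.84, and Nnmt, a methyltransferase, at 0.83, with 0.53 to 0.95 as measured. For Gfra2 1369167_at they were LOC102553541 at 0.88, Dhrs3 at 0.85, Cx3cl1, the chemokine fractalkine, at 0.82, Erich2 at 0.81 and Fam43a at 0.81, with 0.83 to 0.88 as measured. These were the highest of 10430 genes each, over arrays that share animals and whole-array differences, and they are given as a description. The lists of the 3 genes had no member in common, and neither Ret nor a coreceptor appeared among the 5 genes nearest to another. Lists of 5 out of 10430 genes would seldom share a member, so nothing is drawn from this. Between the brightest probe sets of Ret and Gfra1 r was -0.34 with the prefix means removed and -0.64 as measured.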

How the data were processed

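The table deposited by the authors holds signal intensities of probe sets on 17 arrays, not on a log scale, made with GCOS (Affymetrix GeneChip Operating Software) per the submitters' processing notes. Its version and settings are not given in the sources used here. Each array had been scaled as a whole. Its RNA went through 3 rounds of amplification, which can favour the 3′ ends of transcripts. The values were used as deposited, as log2(signal + 16). Tests left out 57 control probe sets and 12417 whose mean log2 signal was below the 40th percentile, which left 18625 of 31099. No arrays were identical (0 pairs).

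Groups and animals came from the labels, and separate animals gave the replicates. Tests used limma 3.58.1 (lmFit, eBayes with trend) in R 4.3.3 with Benjamini-Hochberg adjustment over all tested probe sets and a threshold of 0.05. Regenerating and non-regenerating neurons were compared with the animal as a block. As a check of this pairing, which the animal names in the labels give, the 2 samples of an animal deviated together from their group means (r = 0.34 to 0.71 over probe sets). With the means of the name prefixes removed, r was 0.18 to 0.52 in the MM animals and -0.17 and -0.10 in the 2 MOON animals. Taking out the mean of only 4 MOON arrays lowers r among them by itself, so these 2 values cannot check the pairing. Probe sets below the filter got two-sided exact tests, unadjusted. The fits were also run on simulated normal values with known differences, to check that the estimates came back. Those values held no prefix or scaling effect, so they do not measure error rates on these arrays. The number of arrays limits the precision.

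All probe sets of the 4 genes were named. So were, of the GDNF pathway list, the ligands, coreceptors and other GDNF receptors, any gene past the threshold and the 3 others with the smallest p per comparison. Added were a few cell markers and the 5 genes most correlated with each gene's brightest tested probe set. Etv1, Etv4 and Etv5 were named after their values were seen. The genes and lists were chosen with earlier results of these data known.

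The cell type lists had these median log2 differences between regenerating and non-regenerating, non-regenerating and traced, and regenerating and traced samples. Motor neuron markers had 1.19, -0.05 and 1.21, general neuron markers -0.05, -0.09 and -0.23, sensory ganglion markers 0.06, -0.46 and -0.63, and microglia markers 0.07, 1.12 and 1.15. Astrocyte markers had -0.08, 0.32 and 0.41, oligodendrocyte markers 0.02, -0.02 and -0.10, Schwann cell markers 0.04, -0.03 and 0.48, endothelial markers -0.01, -0.11 and -0.29, and fibroblast markers 0.19, -0.07 and 0.08. Other settings tried were the normalization, the offset, the filter, the trend, array weights, the block, the name prefix, 1 fit over all arrays and leaving out each animal or array. Python 3.11.15 and matplotlib 3.10.9 drew the figures.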

Additional observations from a re-analysis of the deposited data

Results flagged for a closer look

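In 16 groups of 7 samples that were checked for a sample far from the others, 1 was found, and chance alone flags about 1 in 20 groups. The signal of the dim Ret probe set 1388208_a_at was 87.8 in the non-regenerating sample of MM17, and the next highest of that group was 42.7, a gap of 0.68 of the group's whole range. The array is the one that stood apart from the others. The brighter probe sets of Ret read 2486 and 77.7 on it, inside the range of their group.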

How the results depend on the processing

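The 18 fitted differences of the 6 tested probe sets were recomputed under 366 other settings in all. Direction and side of the threshold stayed in 330, the direction turned in 34, and 2 passed, both for Gfra2 1375359_at with array weights. The cause of these changes was not tested. The direction turned for bright probe sets too, in 6 of 19 settings for Ret 1370989_at within animals. In regenerating against traced neurons it turned in 3 of 21 for Gfra1 1387007_at and 1 of 21 for Gfra2 1369167_at. The latter also turned in 1 of 21 in non-regenerating against traced neurons. The comparisons rest on 7 animals, or on 7 samples against 3.

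Against traced neurons, Ret 1370989_at stayed above 0 in each of the 21 other settings of either comparison, at 0.33 to 0.97 and 0.23 to 1.03. Between regenerating and non-regenerating neurons, where it was near 0, it was -0.0028 with array weights, -0.042 in MM animals only and -0.055 without the 2 arrays that stood apart, and -0.055 to 0.14 when each animal was left out in turn. Gdnf was -0.043 in MM animals only and -0.019 to 0.043 when each animal was left out.

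Scaling changed the direction of several differences from traced neurons. Under quantile normalization, non-regenerating neurons gave 0.27 for Ret 1371112_at, 0.21 for Ret 1388208_a_at and 0.045 for Gdnf, and regenerating neurons 0.30 for Gfra1 1367954_at and 0.072 for Gdnf. With arrays centred on the median, which moved the median of all probe sets to 0.24 and 0.26, non-regenerating neurons gave 0.35 for Ret 1371112_at, 0.0043 for Gfra1 1367954_at, 0.12 for Gfra2 1369167_at, 0.21 for Ret 1388208_a_at and 0.30 for Gdnf. Regenerating neurons gave 0.064 for Gfra1 1387007_at, 0.36 for Gfra1 1367954_at, 0.079 for Gfra2 1369167_at and 0.33 for Gdnf. At an offset of 4, Ret 1371112_at was 0.0061 in non-regenerating neurons. In regenerating against traced neurons, Gfra1 1387007_at was 0.020 and Gfra1 1367954_at 0.083 both in MM animals only and with the prefix as a model term, and the latter was 0.11 with array weights and 0.18 without the 2 arrays that stood apart. Leaving out each sample in turn gave -0.34 to 0.29 for Ret 1371112_at and -0.44 to 0.10 for Ret 1388208_a_at in non-regenerating neurons, and -0.28 to 0.18 for Gfra1 1367954_at in regenerating neurons.

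The counts of probe sets called moved more. The count within animals, 3 as reported, was 0 under quantile normalization, with no filter, with no replicate block and without the 2 arrays that stood apart, 1 at an offset of 4, in MM animals only and in 1 fit over all arrays, and 0 to 3 when each animal was left out. With no replicate block in place of the pairing, the difference of 0.56 of Ret 1371112_at is the same by construction, and its unadjusted p in limma went from 0.0155 to 0.027. Between non-regenerating and traced neurons the count of 8 was 17 under quantile normalization, 3 at an offset of 64 and in MM animals only, 2440 with array weights, 23 in 1 fit over all arrays, and 2 to 37 when each sample was left out, with 37 without non-regenerating MM17. Between regenerating and traced neurons the count of 40 was 212 under quantile normalization, 329 with arrays centred on the median, 859 at an offset of 64, 3131 with array weights, 70 in MM animals only, 202 with the prefix term, 1 without the 2 arrays that stood apart, and 1 (without traced MM15) to 1504 (without regenerating MM17) when each sample was left out. Of the probe sets described here, Gfra2 1375359_at alone was among those called, in the fits with array weights.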
